A study of Mus musculus with 12 samples.

Results

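Superoxide dismutases, catalase, glutathione peroxidases and peroxiredoxins were examined in the kidneys of mice exposed to ethanol before birth. The set was given as 10 gene symbols, chosen with earlier results of these data known. Its probes were then taken by the symbol that the platform annotation gives to a probe, and no measured value was used at that step. Of the 10 genes, 9 had at least 1 probe on the array, with 15 probes in all. Prdx5, a peroxiredoxin of mitochondria, peroxisomes and cytosol, was named for no probe in that annotation and is not analysed here. Of the 15 probes, 14 lay above background on at least 6 of 12 arrays and were tested, among 23982 tested probes and 12616 tested genes in all.

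Kidneys came from male C57BL/6J mice, an inbred strain, at postnatal day 28. The 6 ethanol samples had mothers with free access to 10% (v/v) ethanol, beginning at fertilization and ending on gestation day 8.5, and the 6 control samples are labelled only as controls. The labels do not say what control dams drank, which litter a sample came from or whether each sample is its own animal. The p-values therefore cover the spread between these samples, which may be partly technical. No transgene or deletion is named in any group. Exposure ended weeks before the kidneys were taken, and each kidney mixes all its cell types. Kidney markers were above background on all 12 arrays, among them Slc34a1 and Lrp2 of the proximal tubule and Umod and Slc12a1 of the thick ascending limb. Of the adrenal genes, Star and Hsd3b1 were above it on 0 of 12 arrays, Cyp11b1 and Th on 1, Cyp21a1 on 2, Cyp11b2 on 5 and Cyp11a1, dim, on 9. Fat genes were above it on 4 (Plin1), 6 (Lep), 10 (Cidec and Ucp1) and 11 arrays (Fabp4 and Adipoq). Adipoq spanned 5.02 to 10.84 and Ucp1 4.53 to 11.11 on the normalised log2 scale, so fat content may differ between samples, which was not tested.

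Superoxide is a by-product of respiration and is also made by NADPH oxidases. Superoxide dismutases turn it into hydrogen peroxide: Sod1 with copper and zinc in the cytosol, Sod2 with manganese in the mitochondrial matrix, and Sod3, secreted, on the matrix outside cells. Hydrogen peroxide is then broken down by catalase in peroxisomes, by glutathione peroxidases, which in mammals include the selenoproteins Gpx1, Gpx3 and Gpx4, and by peroxiredoxins, which draw on thioredoxin. The proximal tubule is rich in mitochondria and peroxisomes and is known as the main source of the Gpx3 found in plasma.

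The results turn on Sod1, Sod3 and Gpx4, which varied together between kidneys by their brightest probes, and on Gpx3, which varied with Gpx4. They also turn on Prdx1, whose correlations with Sod1, Sod3 and Gpx4 were negative but did not pass the test. RefSeq start-site windows (250 bases before to 50 after the annotated start, GRCm38.p6) were at hand for 9 of the 10 genes, Sod3 not among them, and are shown for these genes so that their start regions can be set side by side. Capitals mark the antioxidant response element core TGACNNNGC, the GC box GGGCGG and the CCAAT box CCAAT, each on either strand. Each sequence is written 5′ to 3′ along its gene. For Gpx4, which has 4 annotated windows, the one shown is the first that overlaps another.
Sod1, chr16:90220512-90220811, plus strand: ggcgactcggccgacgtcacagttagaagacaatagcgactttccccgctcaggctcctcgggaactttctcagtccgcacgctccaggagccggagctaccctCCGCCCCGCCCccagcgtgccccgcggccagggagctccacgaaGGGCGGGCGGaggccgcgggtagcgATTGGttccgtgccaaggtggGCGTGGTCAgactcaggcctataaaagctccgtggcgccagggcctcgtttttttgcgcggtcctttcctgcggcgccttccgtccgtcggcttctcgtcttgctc
Gpx3, chr11:54902604-54902903, plus strand: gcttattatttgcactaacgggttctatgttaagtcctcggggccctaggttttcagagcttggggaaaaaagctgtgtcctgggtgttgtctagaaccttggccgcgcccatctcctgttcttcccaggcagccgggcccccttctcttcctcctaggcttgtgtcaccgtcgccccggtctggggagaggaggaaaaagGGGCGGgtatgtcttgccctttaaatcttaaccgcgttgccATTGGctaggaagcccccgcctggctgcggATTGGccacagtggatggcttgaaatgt
Gpx4, chr10:80053315-80053614, plus strand: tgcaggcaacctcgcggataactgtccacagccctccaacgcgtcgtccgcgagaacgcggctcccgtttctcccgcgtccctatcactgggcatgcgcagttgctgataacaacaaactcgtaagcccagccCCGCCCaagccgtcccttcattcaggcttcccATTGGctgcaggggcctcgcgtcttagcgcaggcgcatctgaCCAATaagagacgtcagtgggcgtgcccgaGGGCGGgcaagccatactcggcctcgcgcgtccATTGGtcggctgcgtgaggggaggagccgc
Prdx1, chr4:116685349-116685648, plus strand: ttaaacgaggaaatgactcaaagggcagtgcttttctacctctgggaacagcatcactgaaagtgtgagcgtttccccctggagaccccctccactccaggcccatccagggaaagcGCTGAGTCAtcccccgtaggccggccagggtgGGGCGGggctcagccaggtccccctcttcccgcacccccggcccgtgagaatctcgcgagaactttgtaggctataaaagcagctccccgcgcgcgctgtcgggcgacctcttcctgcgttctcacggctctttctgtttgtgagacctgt
The antioxidant response element core, the letters that the stress factor NRF2 binds with small MAF proteins, stood once in the Sod1 window, beginning 56 bases before the start, and once in the Prdx1 window, beginning 133 bases before it. It was in no other window of these genes. Of all 32851 windows of this length, 12.4% held it. The GC box stood 4 times in the Sod1 window, with 2 overlapping pairs, and at least once in a window of each of the 9 genes. Among the 4 Gpx4 windows, the first held 0. Of all windows 35.7% held it, a share per window and not per gene. The CCAAT box stood 3 times in the Gpx4 window shown, 2 times in that of Gpx3, once in that of Sod1 and 0 times in that of Prdx1, against 37.4% of all windows. The share of G and C was 66.7% for Sod1, 64.3% for Gpx4, 60.7% for Prdx1 and 56.3% for Gpx3, with a median of 52.7% over all windows. A match to these letters is a description of the window and not a bound site.

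Values are normalised log2 intensities of a gene's brightest probe unless another is named, a scale on which levels of different probes cannot be compared. The arrays had 50.4% to 56.9% of probes above background, lowest in ethanol 2, and correlations between arrays of 0.95 to 0.99 over the tested probes. They did spread along 1 main axis: the first principal component of the tested probes that belong to none of these genes held 32.5% of the variance, where ethanol 2 and ethanol 3 scored highest (45.6 and 37.5) and control 4 scored lowest (-62.5). These 3 arrays also had the highest estimated background in the deposited intensities (9.49, 3.89 and 7.79), against -6.35 to 2.47 in the other arrays. Whether background or another technical difference shapes this axis was not tested. The 3 arrays are named beside the results they touch.

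No gene of the set differed between ethanol and control kidneys after adjustment over all probes. Of the 9 genes, 0 passed an adjusted p under 0.05, and of the 23982 probes 0 (0%) did in limma, with 2913 probes (12.1%) at an unadjusted p under 0.05. An exact permutation test of each probe, adjusted the same way, called 0. Its smallest possible p is 0.00216, so it could call a probe only if very many probes came near that value. That 0 therefore adds little. At an unadjusted p under 0.05 in limma there was 1 of the 9 genes, Sod3, where 9.66% of all genes were. Sod3 was lower in ethanol, as 4.94% of all genes were at that threshold, and 0 of the 9 were higher, against 4.72%. A count of 1 in 9 is near this background, and it became 0 without control 1, 4 or 6 or without ethanol 2, 3 or 5, and 3 without control 2 or ethanol 4. Of the 9 genes 6 lay lower in ethanol and 3 higher, where 45.4% of all genes lay lower, and the median difference was -0.16 against 0.02 over all genes. In 0 of the 9 genes were the groups free of overlap, as in 0.468% of all genes. In kidney RNA, fewer cells of a type and less RNA per cell cannot be told apart.

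**Figure D1:**
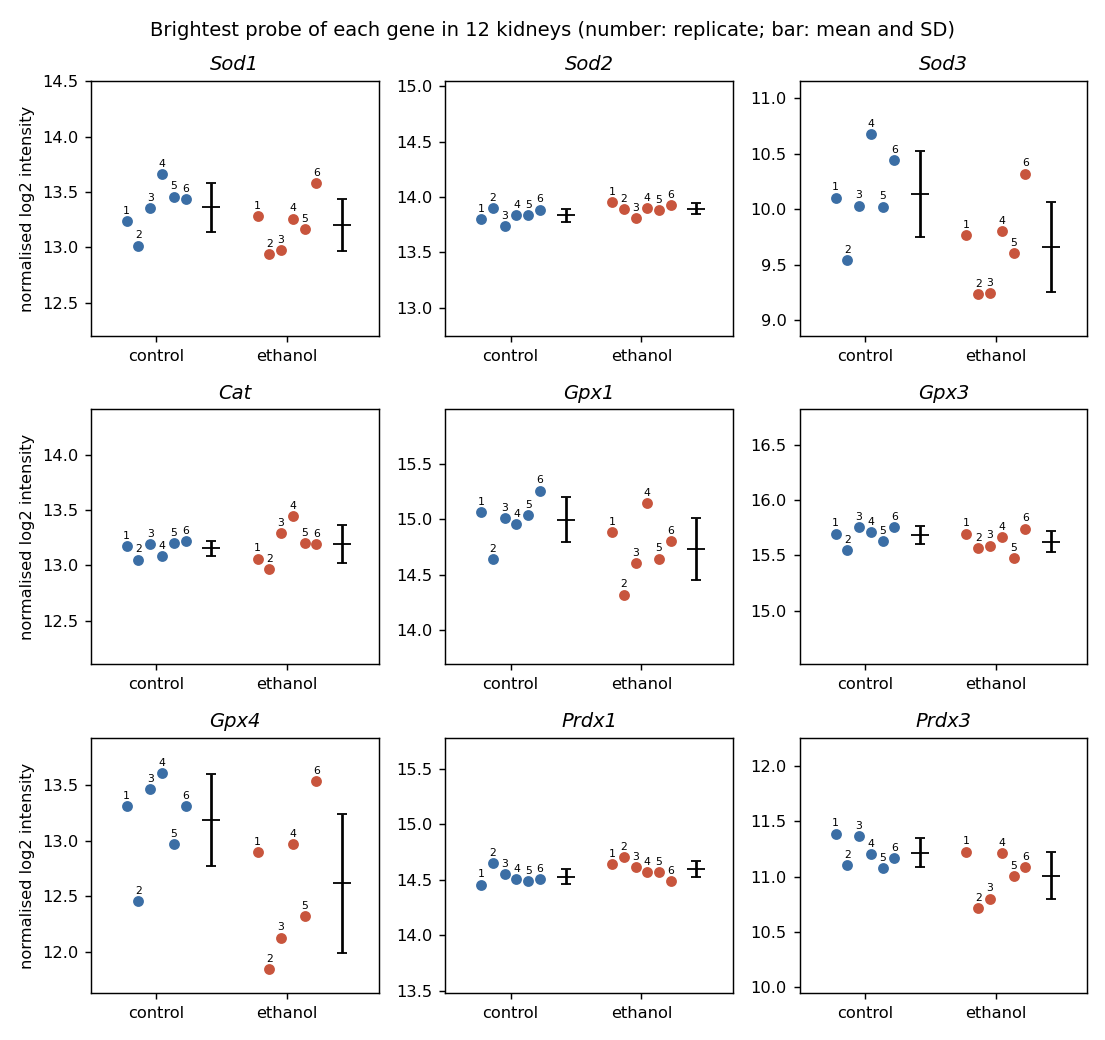
Normalised log2 intensity of the brightest probe of each of the 9 genes (vertical axis, the same span in each panel) in 6 control (blue) and 6 ethanol (red) kidneys; numbers are replicates, bars the mean and SD. Gpx4, Sod3 and Gpx1 spread widely, with ethanol 2 and ethanol 3 low, while Sod2, Gpx3 and Prdx1 stay within 0.28 of log2 over all 12 kidneys.

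Among the superoxide dismutases, Sod3 had the widest gap. Its probe read 9.54 to 10.68 in controls with a median of 10.07, and 9.23 to 10.32 in ethanol samples with a median of 9.69. The groups overlapped: ethanol 6 lay above 4 of the 6 controls, control 2 lay within the ethanol range, and ethanol 2 and 3 were lowest of all. Controls averaged 10.14 ± 0.39 and ethanol samples 9.66 ± 0.41 (SD, n = 6 per group), with a log2 difference of -0.47 ± 0.21 (SE), or 1.39-fold higher in controls (limma, unadjusted p = 0.0377, adjusted p = 0.398, exact permutation p = 0.0693). Without ethanol 2 and 3 the difference was -0.26, and without these and control 4 it was -0.15.

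Sod1, the cytosolic enzyme, read 13.02 to 13.66 in controls (median 13.40) and 12.94 to 13.58 in ethanol samples (median 13.21). The groups overlapped over most of their range, and ethanol 2 and 3 were again the lowest. The log2 difference was -0.16 ± 0.13 (SE; limma adjusted p = 0.646), and it turned to 0.02 without control 4 and ethanol 2 and 3. Sod2, the mitochondrial enzyme, was nearly flat, at 13.74 to 13.90 in controls (median 13.84) and 13.81 to 13.95 in ethanol samples (median 13.90). Its within-group SD of 0.05 on the log2 scale compares with a median of 0.25 over all tested genes. The log2 difference of Sod2 was 0.06, with a 95% interval of -0.12 to 0.24.

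Catalase was represented by a pair of probes. The brighter read 13.05 to 13.22 in controls (median 13.18) and 12.97 to 13.45 in ethanol samples (median 13.20), so that the controls lay inside the ethanol range. The log2 difference was 0.04 with a 95% interval of -0.18 to 0.25, and 0.08 with an interval of -0.18 to 0.34 by the other probe. Each interval includes changes in either direction.

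The glutathione peroxidases lay lower in ethanol, none past the threshold. Gpx4, which reduces lipid peroxides within membranes, was 12.46 to 13.61 in controls (median 13.31) and 11.84 to 13.54 in ethanol samples (median 12.61). Ethanol 2, 3 and 5 lay below every control, while ethanol 6 was above 5 of the 6 controls. Controls averaged 13.19 ± 0.42 and ethanol samples 12.62 ± 0.63 (SD, n = 6 per group), with a log2 difference of -0.57 ± 0.27 (SE), or 1.49-fold higher in controls (limma, unadjusted p = 0.0508, adjusted p = 0.412, exact permutation p = 0.0974). The second probe of Gpx4 gave -0.65 (unadjusted p = 0.0419, adjusted p = 0.403). Without ethanol 2 and 3 the difference of the brightest probe was -0.26, and without control 4 as well it was -0.17.

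Gpx1, the cytosolic and mitochondrial enzyme, ran from 14.64 to 15.26 in controls (median 15.03) and from 14.32 to 15.15 in ethanol samples (median 14.73). Ethanol 2 was lowest and control 6 highest. Apart from control 2 (14.64) and ethanol 4 (15.15), every ethanol sample lay below every control. The log2 difference was -0.26 ± 0.14 (SE; limma adjusted p = 0.467), and -0.12 without ethanol 2 and 3. Gpx3, the secreted enzyme, read 15.55 to 15.76 in controls (median 15.70) and 15.48 to 15.74 in ethanol samples (median 15.63), a difference of -0.06 with a 95% interval of -0.25 to 0.13. Its probe lay close to the top of the normalised scale, which ended at 15.96; whether that narrows its differences was not tested.

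The peroxiredoxins went in both directions. Prdx3, of the mitochondrial matrix, read 11.08 to 11.39 in controls (median 11.19) and 10.71 to 11.23 in ethanol samples (median 11.05), with ethanol 2, 3 and 5 below every control. The log2 difference was -0.21 ± 0.12 (SE; limma adjusted p = 0.473), and -0.09 without ethanol 2 and 3. Prdx1, mostly cytosolic, read 14.46 to 14.65 in controls (median 14.50) and 14.49 to 14.70 in ethanol samples (median 14.59). Its log2 difference was 0.07 with a 95% interval of -0.11 to 0.25. Ethanol 2, where Sod1, Sod3, Cat, Gpx1, Gpx4 and Prdx3 were lowest, had the highest Prdx1 by the brightest probe. By the second Prdx1 probe control 6 was highest (9.05 against 8.96 in ethanol 2). In the deposited intensities of the brightest probe ethanol 1 was (26518 against 24875).

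**Figure D2:**
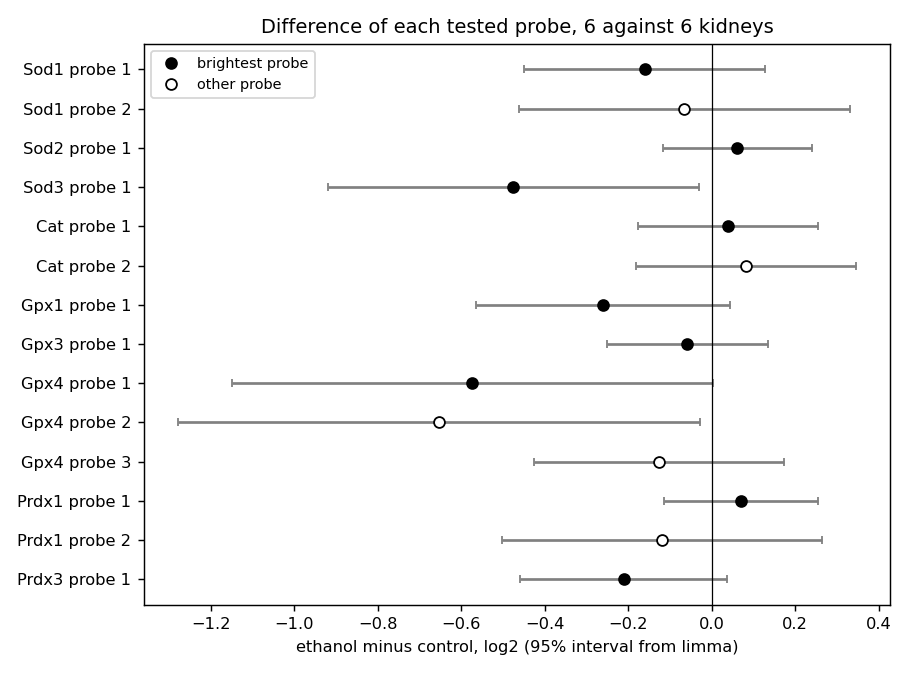
Ethanol minus control difference on the log2 scale (horizontal axis) for the 14 tested probes, with 95% intervals from limma; filled points are the brightest probe of a gene, open points its other probes. The bright pair of Gpx4 probes (-0.57 and -0.65) and Sod3 (-0.47) lie farthest from 0, and of the 14 intervals only those of Sod3 and the second Gpx4 probe exclude 0.

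Probes of the same gene agreed for Gpx4 and less so elsewhere. The first and second Gpx4 probes had a Pearson's r of 0.99 (Spearman's rho 0.99) over the 12 kidneys once group means were removed, described without a test because the probes share arrays. The third Gpx4 probe lay near background, above it on 7 of 12 arrays, and gave a difference of -0.13 with an r of 0.29 to the first, which was -0.27 with the deposited intensities as they stand. For Prdx1 the 2 probes had an r of 0.67, but their differences had opposite signs (0.07 and -0.12). For Cat the r was 0.20, and for the first and second Sod1 probes also 0.20 (-0.04 with the deposited intensities), although each of these 4 probes was above background on 12 of 12 arrays. In the annotation each Sod1 probe has its own target sequence, while the Cat probes share theirs. The second Sod1 probe, dim at 6.45 to 7.56, gave a difference of -0.07, and the third was above background on 2 of 12 arrays and was not tested. Sod2, Sod3, Gpx1, Gpx3 and Prdx3 had 1 probe each, so no second reading of them was made.

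Which enzymes vary together between kidneys was asked over the 12 samples after each group's mean was removed. There were 36 pairs of the 9 genes, each tested by 100000 permutations within groups. By the brightest probe of each gene, Sod1, Sod3 and Gpx4 rose and fell together, and Gpx3 followed Gpx4. The Sod1 pairs rest on 1 probe. The second Sod1 probe, above background on 12 of 12 arrays, had an r of 0.20 with the first and was not tested in pairs. Sod3 and Gpx4 had a Pearson's r of 0.91 (permutation p = 8.0e-05, adjusted over the 36 pairs p = 0.00288) and a Spearman's rho of 0.90 (permutation p = 0.00022). Sod1 and Sod3 had an r of 0.95 (adjusted permutation p = 0.00324; rho 0.80, p = 0.00463), Sod1 and Gpx4 an r of 0.88 (adjusted permutation p = 0.00588; rho 0.84, p = 0.00187), and Gpx3 and Gpx4 an r of 0.84 (adjusted permutation p = 0.0192; rho 0.82, p = 0.00597). These were the 4 pairs past an adjusted p under 0.05, and by rho 2 pairs passed, Sod1 with Gpx4 and Sod3 with Gpx4.

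Taken alone, each group gave r of the same sign for these pairs. The pairs had been picked for passing the test over both groups together, in the same kidneys. The values per group therefore describe that result and are not an independent check, and their p-values are not adjusted for the choice. In the 6 ethanol kidneys Sod3 and Gpx4 had an r of 0.97 (exact permutation p = 0.00139, two-sided), and in the 6 controls 0.85 (exact permutation p = 0.0292). For Sod1 and Sod3 the values were 0.998 in ethanol kidneys (exact permutation p = 0.00417) and 0.90 in controls (exact permutation p = 0.025). Sod1 and Gpx4 gave 0.97 (exact permutation p = 0.00278) and 0.77 (exact permutation p = 0.0778). Gpx3 and Gpx4 gave 0.81 (exact permutation p = 0.0431) and 0.91 (exact permutation p = 0.0194). Without the 2 kidneys farthest from the median of the gene named first, r over the remaining 10 was 0.86 for Sod3 and Gpx4, 0.87 for Sod1 and Sod3, 0.71 for Sod1 and Gpx4 and 0.89 for Gpx3 and Gpx4. With arrays scaled to a common median in place of quantile normalisation, r for Gpx3 and Gpx4 was 0.49 (adjusted permutation p = 0.346), and the other 3 pairs still passed. The Gpx3 and Gpx4 pair also missed the threshold without control 2 (r = 0.79, adjusted permutation p = 0.162) and without control 5 (r = 0.84, adjusted permutation p = 0.052).

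The remaining 32 pairs did not pass. Of all 36 pairs, 9 had an r of at least 0.7 and 3 an r of at most -0.7, where 3.66% and 2.93% of all pairs of tested genes did. All 3 of the latter held Prdx1, with Sod3 (-0.74), Gpx4 (-0.73) and Sod1 (-0.72), each at an adjusted permutation p = 0.0623. By rho these pairs gave -0.58, -0.47 and -0.54 (adjusted permutation p = 0.187, 0.294 and 0.196). Without the 2 kidneys farthest from the median of the gene paired with Prdx1, r was -0.70, -0.41 and -0.25. Prdx3 lay nearest to Gpx4 (r = 0.74, adjusted permutation p = 0.0623) and Gpx1 (0.71, adjusted permutation p = 0.0663). Cat had an r of 0.71 with Gpx1 (adjusted permutation p = 0.0741; 0.23 without the 2 farthest kidneys) and between -0.56 and 0.35 with the others. Sod2 followed none of the genes, with r from -0.30 to 0.26.

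**Figure D3:**
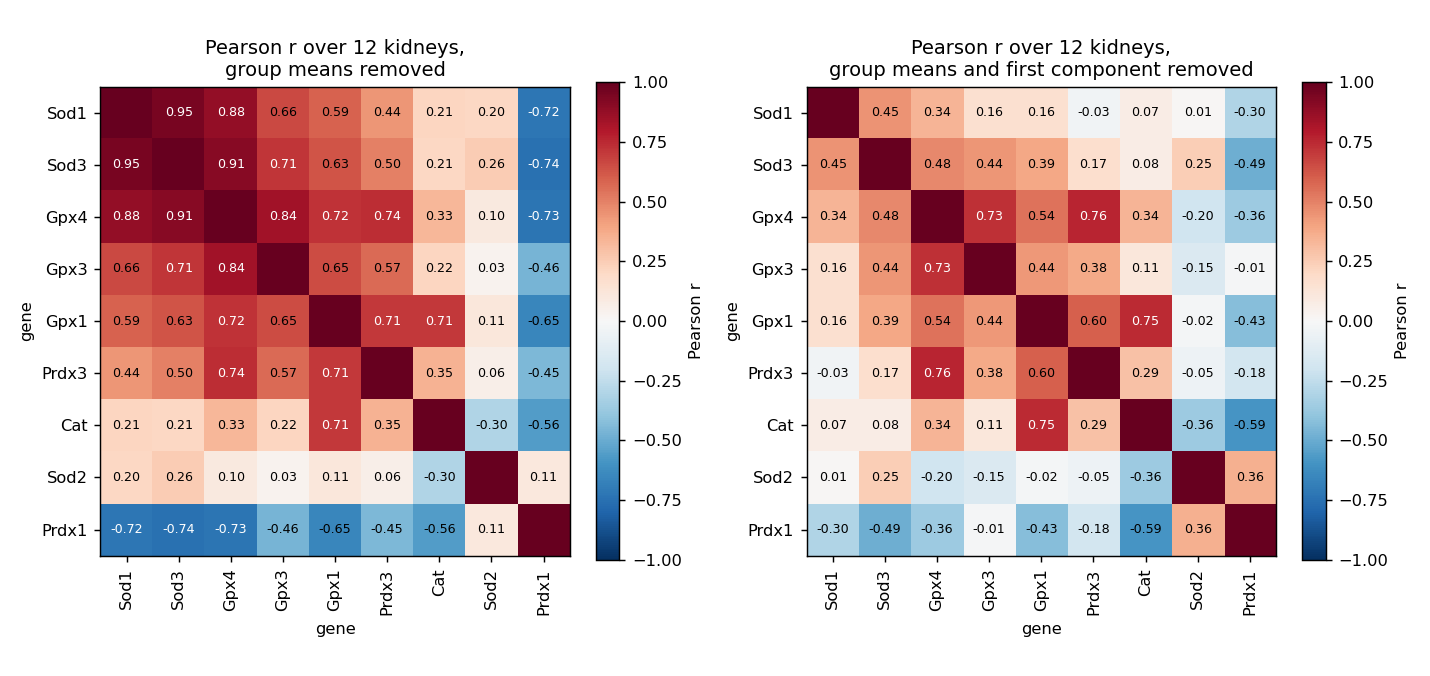
Pearson's r between the 9 genes over 12 kidneys, after removing group means (left) and after also removing the first principal component of all other tested probes (right); red is positive and blue negative. On the left the brightest probes of Sod1, Sod3 and Gpx4 form a block of 0.88 to 0.95. Prdx1 has r of -0.74 to -0.72 with them, none past the test. On the right the block falls to 0.34 to 0.48 and the Prdx1 values move to -0.49 to -0.30. Gpx4 keeps 0.73 with Gpx3 and 0.76 with Prdx3.

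The co-varying genes followed the main axis of the whole data set. Within groups, Sod3 had an r of -0.98 with the first component (permutation p = 1e-05, the smallest that 100000 permutations can give; adjusted over 9 genes p = 9.0e-05; rho -0.99, p = 1e-05). Sod1 had -0.94 (adjusted permutation p = 0.0006; rho -0.80, p = 0.00432) and Gpx4 -0.88 (adjusted permutation p = 0.00054; rho -0.88, p = 0.00014). Gpx3 (-0.66; rho -0.65, p = 0.0277) and Prdx1 (0.69; rho 0.52, p = 0.104) passed, each at an adjusted permutation p = 0.0485. Gpx1 (-0.58, adjusted permutation p = 0.0811; rho -0.64, p = 0.0335), Prdx3 (-0.48, 0.158; rho -0.53, p = 0.0836), Sod2 (-0.21, 0.548; rho -0.22, p = 0.53) and Cat (-0.20, 0.548; rho -0.13, p = 0.707) did not. Without the 2 kidneys farthest from the median score, r was -0.99 for Sod3, -0.89 for Sod1, -0.90 for Gpx4 and -0.93 for Gpx1.

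With that component removed, 0 of the 36 pairs passed. The r was then 0.48 for Sod3 and Gpx4, 0.45 for Sod1 and Sod3 and 0.34 for Sod1 and Gpx4, while 3 pairs stayed at 0.7 or above: Gpx4 with Prdx3 (0.76), Cat with Gpx1 (0.75) and Gpx3 with Gpx4 (0.73). With the component kept but control 4, ethanol 2 and ethanol 3 left out, 0 pairs passed over the 9 remaining kidneys, at an r of 0.86 for Sod3 and Gpx4, 0.89 for Sod1 and Sod3, 0.80 for Sod1 and Gpx4 and 0.94 for Gpx3 and Gpx4. Many genes shared the axis: 9.45% of the other tested genes had an r of at least 0.7 with Sod3, 8.75% with Sod1 and 7.50% with Gpx4, against 0.159% with Sod2 and 0.262% with Cat. What sets the samples apart along this axis, in the tissue or in the measurement, was not tested.

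**Figure D4:**
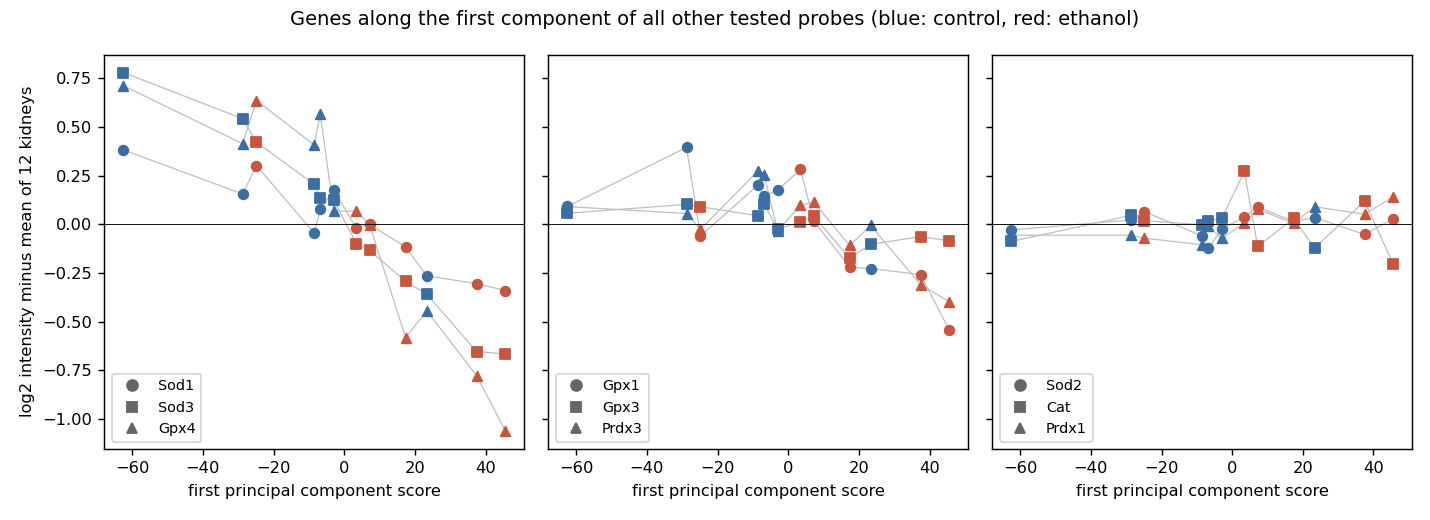
Log2 intensity minus the mean of 12 kidneys (vertical axis) against the score of the first principal component of all other tested probes (horizontal axis, no unit) for 9 genes in 3 panels; blue is control, red is ethanol, and grey lines join the kidneys of a gene. Sod1, Sod3 and Gpx4 descend from control 4 at -62.5 to ethanol 2 at 45.6, while Sod2, Cat and Prdx1 show no descent of that size.

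The genes most like each member over the 12 kidneys, with group means removed, were named by rank of r alone and carry no test. For Sod1 these were Arfgap3 (r = 0.97) and Dao (0.97), which encodes D-amino acid oxidase, a hydrogen peroxide-forming enzyme of peroxisomes. For Sod3 they were Akt1s1 and Rfng (0.98 each), and for Gpx4 Ap2s1 (0.99), a subunit of the endocytic adaptor AP-2, and Mrpl4 (0.99), a mitochondrial ribosomal protein. Gpx1 lay nearest to Pitpnc1 and to the folate receptor gene Folr1 (0.93 each), Gpx3 to 0610038B21Rik (0.89) and Cela1 (0.88), and Prdx3 to the ribosomal protein gene Rps6 (0.98) and Tbrg1 (0.95). Prdx1 was nearest to Zfp974 (0.95) and Mettl24 (0.93), Sod2 to Ank1 (0.85) and Spatc1 (0.81), and Cat to Stk35 (0.84) and Ptcra (0.80).

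The other genes of the pathway gave no call in either direction. The counts below stand beside 45.4% of all tested genes that lay below 0. Of the other peroxidases and the copper chaperone of Sod1, 7 of 9 were tested, 6 lay below 0 and 0 were called, with a median difference of -0.12. The red cell peroxiredoxin gene Prdx2 differed by -0.27 (limma adjusted p = 0.44), Gpx7 by -0.18 and Prdx4, of the endoplasmic reticulum, by -0.13. Of the thioredoxin, glutaredoxin and glutathione genes, 17 of 18 were tested and 14 lay below 0 (median -0.08). Sesn2, a stress-induced sestrin, averaged 7.43 ± 0.13 in controls and 6.92 ± 0.32 in ethanol samples (SD, n = 6 per group; log2 difference -0.51 ± 0.14 SE, limma unadjusted p = 0.00276, adjusted p = 0.38), the glutathione synthetase gene Gss differed by -0.37 and Gclm, a subunit of glutamate-cysteine ligase, by 0.16.

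The selenium list covers the synthesis of selenoproteins such as the glutathione peroxidases. All 8 of its genes were tested, 5 lay below 0 and the median difference was -0.12, with the selenophosphate synthetase gene Sephs2 at -0.20, Sepsecs at -0.16 and Eefsec, the selenocysteine elongation factor, at -0.21. Of 20 enzymes that make superoxide or hydrogen peroxide 11 were tested, 6 below 0 and 5 above (median -0.02). The NADPH oxidase subunit gene Cyba differed by -0.72 ± 0.30 (SE; limma unadjusted p = 0.0304, adjusted p = 0.386), Dao by -0.38 and the monoamine oxidase gene Maob by 0.23. Of 16 peroxisome import and assembly genes 13 were tested and 8 lay below 0 (median -0.05), with Pex10 at -0.47, Pex11g at -0.50 and Pex5, the receptor that brings catalase into peroxisomes, at -0.22. The number called was 0 in each of these 5 lists. At an unadjusted p under 0.05, 4.94% of all genes were lower in ethanol and 4.72% higher. Lower at that threshold were 1 of 17 thioredoxin, glutaredoxin and glutathione genes, 1 of 11 superoxide or hydrogen peroxide makers and 2 of 13 peroxisome genes. So were 0 of 7 other peroxidase and chaperone genes and 0 of 8 selenium genes, and 0 genes were higher in any list.

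Markers of several other cell types had lower values in ethanol samples, none past the adjusted threshold, where 45.4% of all tested genes lay below 0. Of the 7 red cell markers 4 were tested, all below 0 (median difference -0.23), with mean levels of 11.52 to 12.45 in controls and 11.16 to 12.18 in ethanol samples. Red cells are rich in Cat, Gpx1 and Prdx2. Gpx1 (-0.26) and Prdx2 (-0.27) lay lower in ethanol, and Cat lay higher by both probes (0.04 and 0.08). Of the 6 lymphocyte markers 3 were tested and all 3 lay below 0 (median -0.63; 6.37 to 7.63 in controls, 5.92 to 6.69 in ethanol samples). Of the 5 macrophage markers 4 were tested, all below 0 (median -0.18; 8.11 to 8.40 in controls, 7.93 to 8.30 in ethanol samples). The fat markers, 5 of 6 tested, had a median of 0.30 (4.92 to 7.94 and 4.87 to 8.66), and the 9 kidney markers, 8 tested, a median of 0.04 (12.08 to 12.49 and 12.22 to 12.51). Of the 7 adrenal markers 1 was tested, Cyp11a1, at 0.46 ± 0.20 (SE; limma unadjusted p = 0.0367, adjusted p = 0.397). At an unadjusted p under 0.05, where 4.94% of all genes were lower and 4.72% higher in ethanol, 3 of 3 lymphocyte, 1 of 4 macrophage, 1 of 8 kidney, 0 of 4 red cell and 0 of 5 fat markers were lower, and the 1 adrenal marker was higher. The kidney marker was Pecam1, of endothelial cells, at -0.47 ± 0.16 (SE; limma unadjusted p = 0.011, adjusted p = 0.38), and the macrophage marker was C1qb at -0.29 ± 0.13 (SE; unadjusted p = 0.0488, adjusted p = 0.41). Pecam1 and C1qb were singled out after their values were seen. None of these markers was called, and the part of these cells in the values of Gpx4, Sod3, Gpx1 or any other of the 9 genes was not tested.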

How the data were processed

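Each of 12 kidney RNA samples was measured on 1 Illumina bead array of 45281 probes. The authors deposited linear probe intensity values, whose negative entries show that background had been subtracted. Per the submitters' processing notes they came from GenomeStudio; its version, background method and scaling were not given in the sources used here. A second table was left out of every step, because its 24 value columns match no sample label.

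From these intensities the background of each array was estimated as the mode of its values (kernel bandwidth 2, below the 0.6 quantile) and the spread below it. A normal-exponential correction with an offset of 16, quantile normalization and log2 followed (limma 3.58.1, R 4.3.3). Probes above background (normal probability under 0.05) on at least 6 of 12 arrays were tested as ethanol minus control with lmFit and eBayes, Benjamini-Hochberg adjusted over 23982 probes. Differences on the log2 scale of dim probes are drawn toward 0 by the offset, and the number of arrays limits the precision. A gene was its brightest tested probe. Exact permutation tests ran over all 924 assignments (smallest possible p 0.00216, two-sided). Correlations (numpy 2.4.6) used group-centred values and 100000 permutations within groups, adjusted over 36 pairs. The design had planned for 10 genes, but Prdx5 had no probe.

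Symbols came from the platform annotation: 34885 probes had 1 symbol, 18 several and 10378 none (probes with several symbols named no gene). Genes named besides the set were, per list, the 3 with the smallest unadjusted p when none was called, and per member the 2 genes of highest r. The members and lists were chosen with earlier results of these data known. Scripts were tested on simulated data. Alternatives covered background, scaling, filter, probes, weights, variance prior, a replicate block, arrays left out and, for pairs, the first component. Shared replicate numbers were not taken to pair samples.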

Additional observations from a re-analysis of the deposited data

How the results depend on the processing

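No setting moved any of the 9 genes past an adjusted p under 0.05, the smallest being 0.159 for Sod3 with a replicate block, and every difference kept its sign apart from 3 small ones. Prdx1 turned to -0.025 with probes averaged, Sod1 to 0.022 without the 3 arrays at the ends of the first component, and Cat ranged from -0.010 to 0.084 with each array left out in turn, turning without ethanol 4. The number of genes at an unadjusted p under 0.05 was 1, and 2 with an offset of 50, median scaling, the deposited intensities as they stand, the probes of a gene averaged, arrays weighted by quality, a trended robust prior or the replicate block. It was 0 by the exact permutation test, without the 3 end arrays and without ethanol 2 and 3 (chosen after seeing the data), and ranged from 0 to 3 with each array left out. With the deposited intensities as they stand 2 probes of all those tested were called, and 0 of the 9 genes. The pairs past the threshold numbered 4, against 8 with the deposited intensities, 17 with group means not removed and 2 by Spearman's rho. There were 0 without the 3 end arrays (9 kidneys remain) and 0 with the first component removed; the cause was not tested. Leaving out each array in turn gave 3 to 6 pairs. The first component, rho and these single-array runs were added after seeing the data.

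Same-numbered samples had correlations of their deviations from 0.001 to 0.46, above 0.1 for 1 of 6 pairs, so the numbers are not taken to pair the samples; under the block Sod3 had an unadjusted p = 0.00445 and Gpx4 p = 0.00872 in limma, neither called after adjustment. With the deposited intensities, r between probes 1 and 3 turned from 0.24 to -0.28 for Sod1 and from 0.29 to -0.27 for Gpx4, between probes 2 and 3 of Gpx4 from 0.34 to -0.28, and between probes 1 and 2 of Sod1 from 0.20 to -0.04. The third probes of Sod1 and Gpx4 lay near background, which limits them.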
